A study of Homo sapiens with 11 samples.

Results

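The cardiac myosin chains described here are the products of 7 genes, the heavy chain genes MYH6, MYH7 and MYH7B and the light chain genes MYL2, MYL3, MYL4 and MYL7. They were taken by symbol, as every row of the deposited count table that carries 1 of these names. All 7 were found among the 19990 genes of the table, and all 7 passed the filter on low counts, which removed 0 genes. WTC11 is a human induced pluripotent stem cell line, labelled as passage 63 for all 11 wells. Its cells were turned into cardiomyocytes with CHIR99021, an inhibitor of the kinase GSK3, followed by IWP2, an inhibitor of Wnt secretion, and were then kept in RPMI1640 with B27 and insulin. Wells were collected on Day 30 (n = 4), Day 60 (n = 3) and Day 113 (n = 4) of culture, and poly(A) RNA was sequenced. The labels name no untreated or otherwise treated group, and the days differ in culture time as far as they state. All 11 wells come from 1 differentiation of 1 line, so the replicate spread is a spread between wells and covers neither donors nor differentiations. Day of culture and day of collection cannot be told apart.

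Myosin II is a hexamer of a pair of heavy chains, whose heads split ATP and pull on actin, and of light chains wrapped around the neck of each head, an essential and a regulatory chain per head. In the human heart MYH6 (alpha heavy chain) is the faster isoform and typical of the atria, while MYH7 (beta heavy chain) is the slower isoform and dominates the ventricle. MYL7 and MYL4 are the regulatory and essential light chains of the atria and of the embryonic heart, MYL2 and MYL3 those of the adult ventricle, and MYH7B is a relative of MYH7 whose transcript in heart carries a microRNA.

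On GRCh38, MYH6 lay at chr14:23381990-23408277 and MYH7 at chr14:23412738-23435718, next to each other on the minus strand. MYH7B lay on the plus strand at chr20:34975403-35002437, and its exons overlap those of TRPC4AP, which is read from the opposite strand. MYL2 lay at chr12:110910819-110920722, MYL3 at chr3:46857872-46882169 and MYL7 at chr7:44138864-44141332, all on the minus strand, and MYL4 lay at chr17:47200446-47223679 on the plus strand. Each heavy chain gene holds a microRNA of the "myomiR" group in an intron on its own strand. The 3 mature sequences, from RefSeq on GRCh38.p14, are shown because each is carried inside a heavy chain gene and a pair of them share a seed. They are written 5′ to 3′ with the seed, bases 2 to 8, in capitals.
hsa-miR-208a-3p: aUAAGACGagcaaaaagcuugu
hsa-miR-208b-3p: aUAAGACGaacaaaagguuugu
hsa-miR-499a-5p: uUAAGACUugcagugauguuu
The first lies in MYH6 at chr14:23388602-23388623, the second in MYH7 at chr14:23417997-23418018 and the third in MYH7B at chr20:34990408-34990428. The miR-208a and miR-208b arms share 1 seed, and that of miR-499a-5p differs from it in the last base alone, U in place of G. The poly(A) libraries do not measure mature microRNAs. The hairpin of miR-208b has a row of its own with 0 to 19 counts per library, and the other hairpins were not analysed here.

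The total count per library ran from 24071375 to 34546715. Values below are CPM, counts scaled to a library of 1000000 after trimmed-mean (TMM) normalization, whose factors ran from 0.966 to 1.04. Each of the 7 genes had between 3612 and 492925 counts in every library, so the counting error was 0.142% to 1.66% of a value. Tests are edgeR's quasi-likelihood F-test over all 19990 genes with Benjamini-Hochberg adjustment, and a gene is called where the adjusted p is under 0.05. The median log2 fold change of all genes was -0.01 from Day 30 to Day 60, 0.00 from Day 60 to Day 113 and -0.02 from Day 30 to Day 113. The summed level of 10 cardiomyocyte reference genes (TNNT2, TTN, MYBPC3 and others) was 14522 to 19916 CPM at Day 30, 17811 to 20098 at Day 60 and 18648 to 19392 at Day 113, so the wells carried the labelled cell type on every day. Markers of other cell types were detected too. The summed level of 7 fibroblast markers was 3353 to 7706, then 2068 to 3569, then 5427 to 13033 CPM, and that of 6 endothelial markers was 55.8 to 76.2, then 38.0 to 63.4, then 195 to 800 CPM. The 5 smooth muscle markers gave 524 to 765, then 657 to 917, then 893 to 1338 CPM, the 5 epicardial markers 103 to 148, then 154 to 209, then 188 to 257 CPM, and the 6 endoderm and hepatic markers 412 to 1205, then 44.7 to 52.8, then 11.3 to 40.2 CPM. The 5 proliferation genes gave 337 to 422, then 528 to 773, then 201 to 397 CPM. Genes of 1 list did not all move together. Most of the fibroblast sum was COL1A1, COL1A2 and COL3A1. From Day 30 to Day 113, 3 of the 7 fibroblast markers were called higher and 2 lower, the latter PDGFRA (log2 change -2.15) and LUM (-1.27). Of the 5 epicardial markers 2 were called higher and 2 lower. The 4 skeletal muscle markers gave 243 to 332, then 474 to 685, then 391 to 519 CPM. Most of that sum was CKM, the muscle creatine kinase, which heart muscle also expresses, at 287, 550 and 429 CPM. Of the other skeletal markers MYOD1 had 0 counts at Day 30 and at most 1.12 CPM in any well, and MYOG reached at most 1.12 CPM. In these bulk samples fewer cells of a type and less RNA per cell cannot be told apart, and the part of the cell mixture in the changes below was not tested.

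From Day 30 to Day 60, 2 of the 7 genes rose, MYH7B and MYL2, and 0 fell. In that comparison 10.3% of all genes were called, 4.39% as higher and 5.91% as lower. From Day 60 to Day 113, MYL2 rose again while MYH7 and MYH7B fell, where 24.0% of all genes were called, 12.9% as higher and 11.1% as lower. From Day 30 to Day 113, MYL2 and MYL4 rose and MYH7 fell, where 34.5% of all genes were called, 17.3% as higher and 17.2% as lower. MYH6, MYL3 and MYL7 were called in 0 of the 3 comparisons. The median log2 fold change of the 7 genes was 0.18, -0.08 and 0.10 in the same order. It was 0.06, -0.10 and -0.04 with scaling to the cardiomyocyte reference genes, and 0.22, -0.14 and 0.08 with upper-quartile scaling. Between Day 30 and Day 60 the wells did not overlap for MYH7B and MYL2, both higher, against 10.7% of all genes higher and 14.1% lower. Between Day 60 and Day 113 they did not overlap for MYL2 and MYL4, higher, and for MYH7 and MYH7B, lower, against 16.2% and 14.4%. Between Day 30 and Day 113 they did not overlap for MYL2, higher, and MYH7, lower, against 17.1% and 18.0%. Comparisons that share a day share its libraries, and their values stand side by side only.

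**Figure D1:**
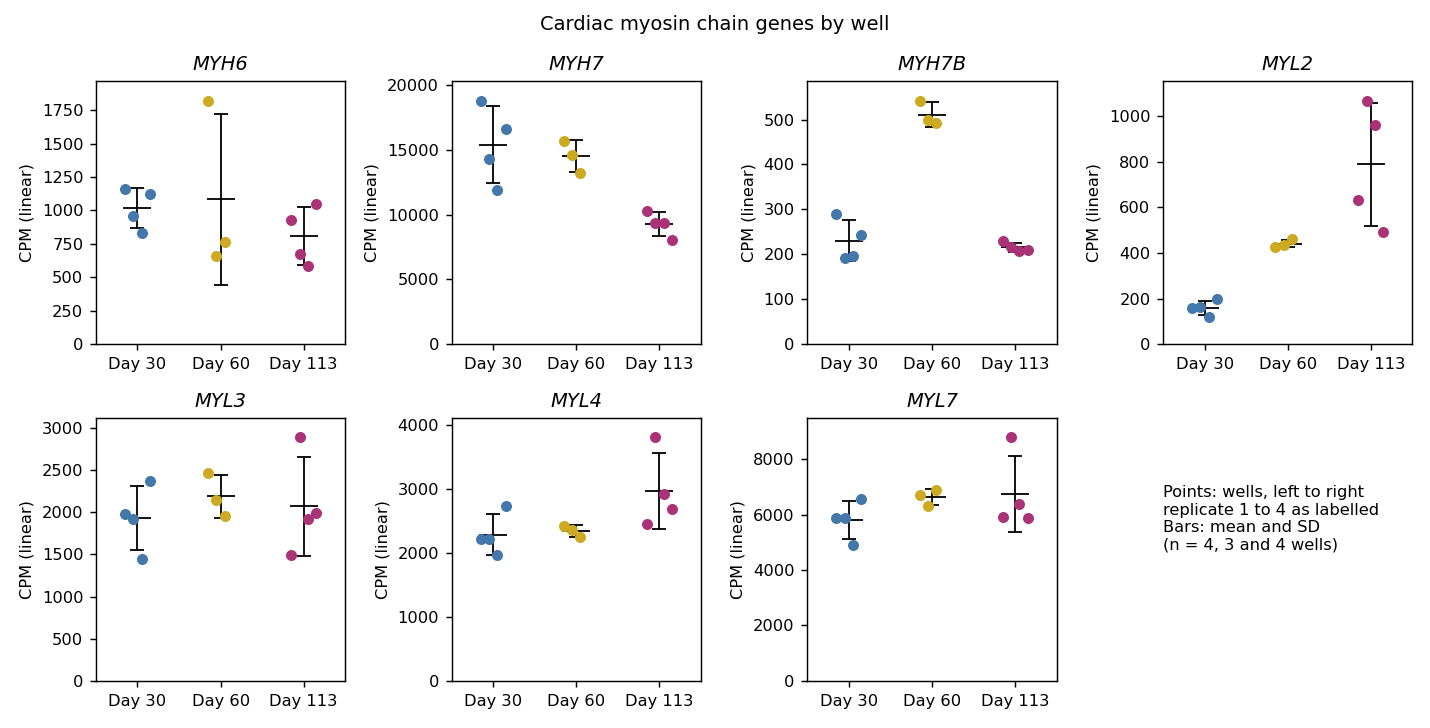
Level of each of the 7 genes (CPM, linear axis from 0) by day of culture; each point is a well, and the bars give the mean and SD of 4, 3 and 4 wells. MYH7B is higher in the Day 60 wells than in all others, MYL2 climbs at each step, MYH7 is low at Day 113, and 1 Day 60 well stands high in MYH6.

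MYH7 was the most abundant of the 7 by counts in all 11 wells. It stood at 18825, 14292, 11897 and 16635 CPM in the 4 Day 30 wells, at 15732, 14582 and 13251 CPM in the 3 Day 60 wells and at 10303, 9381, 9355 and 8067 CPM in the 4 Day 113 wells. The Day 30 wells enclosed those of Day 60, and all 4 Day 113 wells lay below every earlier well. MYH7 made up 1.53% of all counts at Day 30, 1.44% at Day 60 and 0.937% at Day 113. The change was -0.09 ± 0.14 (SE) on the log2 scale by Day 60 (adjusted p = 0.805, edgeR). It then fell by 0.65 ± 0.14 to Day 113 (adjusted p = 0.00404) and by 0.73 ± 0.13 from Day 30 to Day 113 (adjusted p = 0.000521), to 0.602 times the Day 30 level. The fall was not shown to be particular to the later interval: the later change minus the earlier one came to -0.56 ± 0.25 (adjusted p = 0.182). Both falls were called in all 21 alternatives run, of which the setting with no filter repeats the main fit. A fall after Day 60 with no call before it was seen in 9.13% of all genes.

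MYH7B rose and then returned. Its level was 290, 192, 197 and 242 CPM at Day 30, then 542, 499 and 491 CPM at Day 60, then 229, 216, 207 and 210 CPM at Day 113. The lowest Day 60 well stood above the highest well of both other days, while Day 30 and Day 113 overlapped. The log2 change was 1.15 ± 0.13 by Day 60 (adjusted p = 3.29e-05), a 2.22-fold rise, and then -1.24 ± 0.13 (adjusted p = 1.03e-05). Day 113 against Day 30 gave -0.09 ± 0.12 (adjusted p = 0.582). The later change minus the earlier one came to -2.40 ± 0.21 (adjusted p = 2.54e-05). By this test of the 2 intervals 1 of the 7 genes was called, MYH7B, where 9.34% of all genes were called, 4.97% as higher and 4.38% as lower. A called rise by Day 60 followed by a called fall was found in 183 genes, 0.915% of all tested. Among the 2169 genes with a mean of at least 100 CPM, 13 rose more than MYH7B by Day 60 and 11 fell more after it. The overlapping gene TRPC4AP stood at 132 ± 5.84, 113 ± 4.34 and 136 ± 8.03 CPM on the 3 days (SD, n = 4, 3 and 4). It was not called by Day 60 (-0.22, adjusted p = 0.123) and moved the other way after it (0.26, adjusted p = 0.0388), although without a stated strand setting the reads of the shared exon bases cannot be told apart. The summed proliferation genes and the summed skeletal muscle markers were also at their highest on Day 60, the latter with a called rise of CKM (0.94, adjusted p = 0.0006), and their part in this result was not tested.

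The MYH6 wells of Day 60 differed by more than the means of the 3 days did. Its level was 1159, 955, 833 and 1120 CPM at Day 30, then 1822, 663 and 764 CPM at Day 60, then 932, 677, 583 and 1049 CPM at Day 113. Replicate 1 of Day 60 held the highest MYH6 level of all wells, and the other two wells of that day lay below all 4 of Day 30. The log2 change was 0.09 ± 0.28 by Day 60 (adjusted p = 0.904), -0.42 ± 0.28 after it (adjusted p = 0.309) and -0.33 ± 0.26 over the whole course (adjusted p = 0.365). Without that well the change by Day 60 was -0.49 and that after Day 60 was 0.18, so the sign of both rested on it, and neither was called. MYH6 and MYH7 share sequence: 14.8% of the 50-base windows of the MYH6 transcripts were also found in MYH7, and 4.25% of its 150-base windows. Of the MYH7 windows, 14.5% of those of 50 bases and 4.14% of those of 150 bases were also found in MYH6. At Day 30 MYH7 stood at a mean of 15412 CPM and MYH6 at 1017 CPM. How reads matching both were counted is not given in the sources used here, so how much of the MYH6 value is uncertain is not known. The shares of MYH6 and its ratio to MYH7 carry the same limit. MYH7B and the 4 light chains shared 0 windows with any other of the 7 genes.

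MYL2, the ventricular regulatory light chain, had the largest log2 change of the 7 genes from Day 30 to Day 113. It stood at 157, 161, 119 and 196 CPM at Day 30, at 428, 436 and 460 CPM at Day 60 and at 634, 1068, 960 and 493 CPM at Day 113. The 3 days did not overlap, and at Day 113 the wells spread over the widest range, from 493 to 1068 CPM. The log2 change was 1.48 ± 0.21 by Day 60 (adjusted p = 0.000393) and 0.84 ± 0.22 after it (adjusted p = 0.0107). Over the whole course it was 2.32 ± 0.21, a 4.98-fold rise (adjusted p = 6.02e-07). A difference between the 2 intervals was not shown (-0.64 ± 0.37, adjusted p = 0.315). A called rise in both intervals was found in 203 genes, 1.02% of all tested, and among the 2169 genes above 100 CPM 4 rose more by Day 60 and 5 over the whole course. Scaled to the 10 cardiomyocyte reference genes in place of all genes, the whole-course change was 2.18. The fibroblast, smooth muscle and endothelial sums also reached their highest values at Day 113, although the fibroblast markers PDGFRA and LUM fell. The part of these cells in the rise was not tested.

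MYL7, the atrial regulatory light chain, was the light chain with the most counts in every well. Its level was 5863, 5865, 4898 and 6574 CPM at Day 30, 6700, 6308 and 6896 CPM at Day 60 and 5913, 8793, 6392 and 5886 CPM at Day 113. Wells of all 3 days overlapped, and replicate 2 of Day 113 lay above all others. The whole-course change was 0.22 ± 0.13 on the log2 scale (adjusted p = 0.223), so neither a rise nor a fall was detectable against the spread between wells.

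Of the essential light chains, MYL4 was called in 1 comparison and MYL3 in 0. MYL4, the atrial and embryonic form, stood at 2215, 2221, 1965 and 2735 CPM at Day 30, at 2427, 2351 and 2253 CPM at Day 60 and at 2447, 3809, 2917 and 2687 CPM at Day 113. Each Day 113 well lay above the Day 60 wells, but the highest Day 30 well reached into the range of Day 113. MYL4 rose by 0.38 ± 0.13 on the log2 scale over the whole course (adjusted p = 0.0379), a 1.30-fold change. That call was lost in 7 of 21 alternatives. The adjusted p was 0.234 with scaling to the cardiomyocyte reference genes and 0.0531 with the 2 days alone. It was 0.0909, 0.0772 and 0.117 without Day 30 replicate 1, 2 or 3, and 0.105 and 0.0625 without Day 113 replicate 2 or 3. MYL3, the ventricular form, stood at 1979, 1918, 1442 and 2372 CPM at Day 30, at 2461, 2151 and 1951 CPM at Day 60 and at 1488, 2889, 1916 and 1993 CPM at Day 113. Its wells overlapped on all days, and the change over the whole course was 0.10 ± 0.18 (adjusted p = 0.696).

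Some wells held the lowest or highest level of their day in several light chains. A test of the gap beside the extreme well against the range of its day was run at Day 30 and Day 113. Over the 7 genes and the within-well ratios described below, it flagged 0 of 24 cases. Replicate 3 held the lowest level of all 4 light chains at Day 30. That well was also the lowest of its day in MYH6 (833 CPM), MYH7 (11897 CPM) and the cardiomyocyte reference sum (14522 CPM). At Day 113 replicate 2 held the highest level of all 4 light chains, while at Day 60 the 4 genes did not share an order of wells. Over the 11 libraries, with the mean of each day removed, Pearson's r of log2 CPM was 0.95 between MYL3 and MYL4, 0.93 between MYL4 and MYL7 and 0.83 between MYL2 and MYL7, and it was lowest among the light chains between MYL2 and MYL3, at 0.65. Between MYH7 and MYH7B it was 0.85, and between MYH6 and MYH7 0.35. These values describe 11 libraries that share a scaling step.

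**Figure D2:**
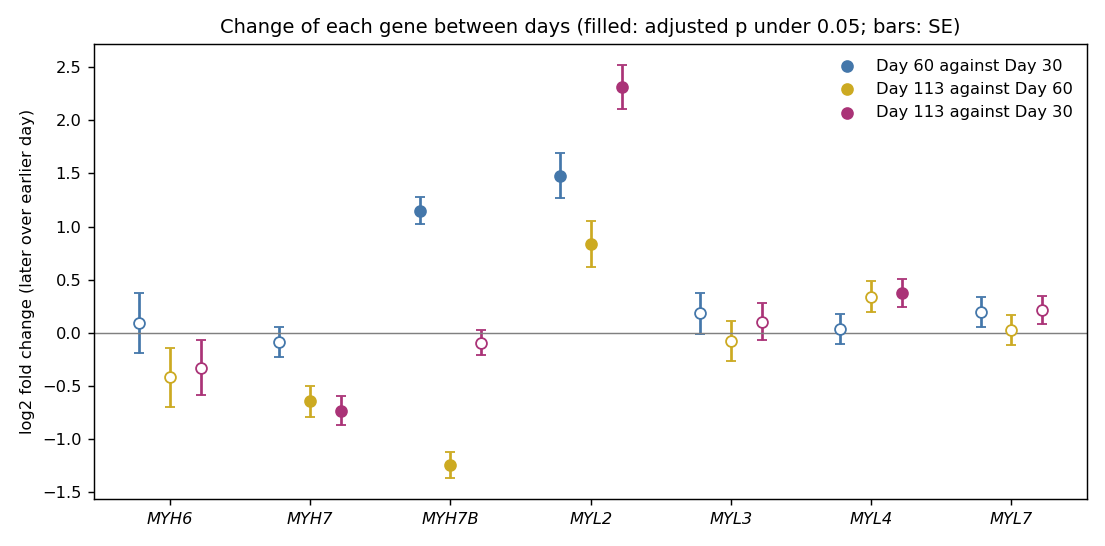
Log2 fold change of each gene between days (later over earlier day), with the SE as bars; filled points have an adjusted p under 0.05 and open points do not. MYL2 is above 0 in all 3 comparisons, MYH7B changes sign between the intervals, and the points of MYH6, MYL3 and MYL7 are all open.

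Levels of different genes can be compared only per length, and CPM was divided by the kilobases of annotated exon. On that scale MYL7 was first on every day, at 3978, 4551 and 4627 CPM per kb on the 3 days. MYH7 was second at Day 30 and Day 60, at 2532 and 2386 CPM per kb, and stood at 1524 CPM per kb at Day 113. MYL3 (1417, 1609 and 1523) and MYL4 (1396, 1433 and 1812) lay next, and their wells overlapped on each day. At Day 113 MYL4, MYH7 and MYL3 followed MYL7, with the wells of each neighbouring pair overlapping. MYL2 rose from 116 to 324 and 579 CPM per kb. It overlapped MYH6 (157 CPM per kb) at Day 30 and lay above MYH6 (167 and 125 CPM per kb) in every well at Day 60 and Day 113. MYH7B was last on every day, at 29.03, 64.44 and 27.20 CPM per kb. MYL7 as first and MYH7B as last held with coding length and with the longest coding transcript as well. The order of MYH7, MYL3 and MYL4 changed with the length used, and so did that of MYL2 and MYH6 at Day 30. With coding length MYL2 (297 CPM per kb) lay above MYH6 (175 CPM per kb) at Day 30, and their wells did not overlap.

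**Figure D3:**
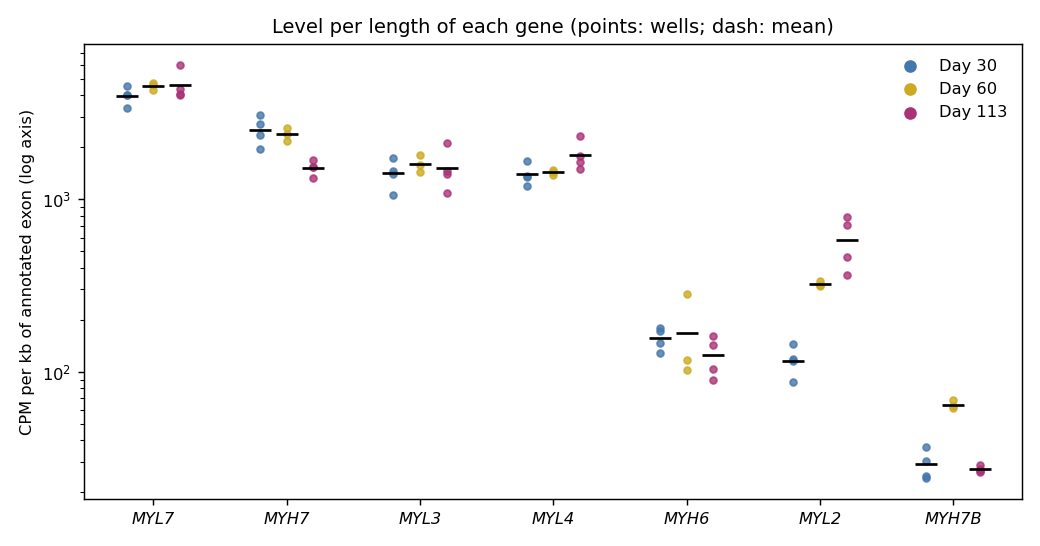
Level of each gene per kilobase of annotated exon (CPM per kb, log axis), with points for wells, colours for days and a dash for the mean of the day. MYL7 stands highest and MYH7B lowest on each of the 3 days. Per kilobase of exon, MYL2 moves from the level of MYH6 to well above it.

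The sum of the 4 light chains over the sum of the 3 heavy chains, both per kilobase of exon, was 2.57 ± 0.317 at Day 30 (SD, n = 4), 3.04 ± 0.277 at Day 60 (n = 3) and 5.13 ± 1.21 at Day 113 (n = 4). The Day 113 wells, at 3.81 to 6.74, all lay above the Day 60 wells, at 2.80 to 3.34. The size of this ratio depends on the length used, and with coding length it was 4.79, 5.66 and 9.71. Among the 3 heavy chains MYH7 made up 93.1%, 91.3% and 90.9% on the 3 days per kilobase, MYH6 5.80%, 6.18% and 7.51%, and MYH7B 1.07%, 2.47% and 1.63%. MYL2 made up 2.82% ± 0.231, 6.65% ± 0.242 and 10.97% ± 2.35 of the regulatory pair MYL2 and MYL7. MYL3 made up 50.2%, 52.8% and 45.3% of the essential pair MYL3 and MYL4. The ventricular regulatory chain was thus the minor member of its pair on all 3 days. The balance of the essential pair depends on the length used: per kilobase of the longest transcript MYL3 stood at 1905, 2162 and 2047 CPM per kb and MYL4 at 2518, 2584 and 3269.

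Ratios of counts within a well need no scaling between wells, and 5 were tested for each pair of days by a two-sided exact permutation test, 15 tests in all. With these group sizes the smallest p is 0.0286, and the smallest p adjusted over the 15 tests was 0.0612, so 0 ratios passed after adjustment. For MYL2 to MYL7 the log2 ratio averaged -5.21 ± 0.12 at Day 30, -3.91 ± 0.06 at Day 60 and -3.14 ± 0.35 at Day 113 (SD, n = 4, 3 and 4). Its differences were 1.30 by Day 60 (exact permutation p = 0.0286) and 0.77 after it (exact p = 0.0571), and all Day 113 wells lay above all Day 60 wells. For MYL2 to MYL3 it averaged -3.61 ± 0.03, -2.30 ± 0.22 and -1.42 ± 0.44. Both ratios share MYL2 and are not independent. For MYH7 to MYH6 it averaged 3.91 ± 0.08, 3.90 ± 0.70 and 3.55 ± 0.46, and its whole-course difference of -0.36 had an exact permutation p of 0.171. In the wells it ran from 3.84 to 4.02 at Day 30, from 3.11 to 4.46 at Day 60 and from 2.94 to 4.00 at Day 113, so the wells lay closest together at Day 30. For MYL3 to MYL4 it averaged -0.26 ± 0.13, -0.11 ± 0.12 and -0.54 ± 0.15, with a difference of -0.43 after Day 60 (exact p = 0.0286). That of MYL7 to MYL4 was 1.35 ± 0.07, 1.501 ± 0.10 and 1.19 ± 0.07, with a difference of -0.31 after Day 60 (exact p = 0.0286).

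**Figure D4:**
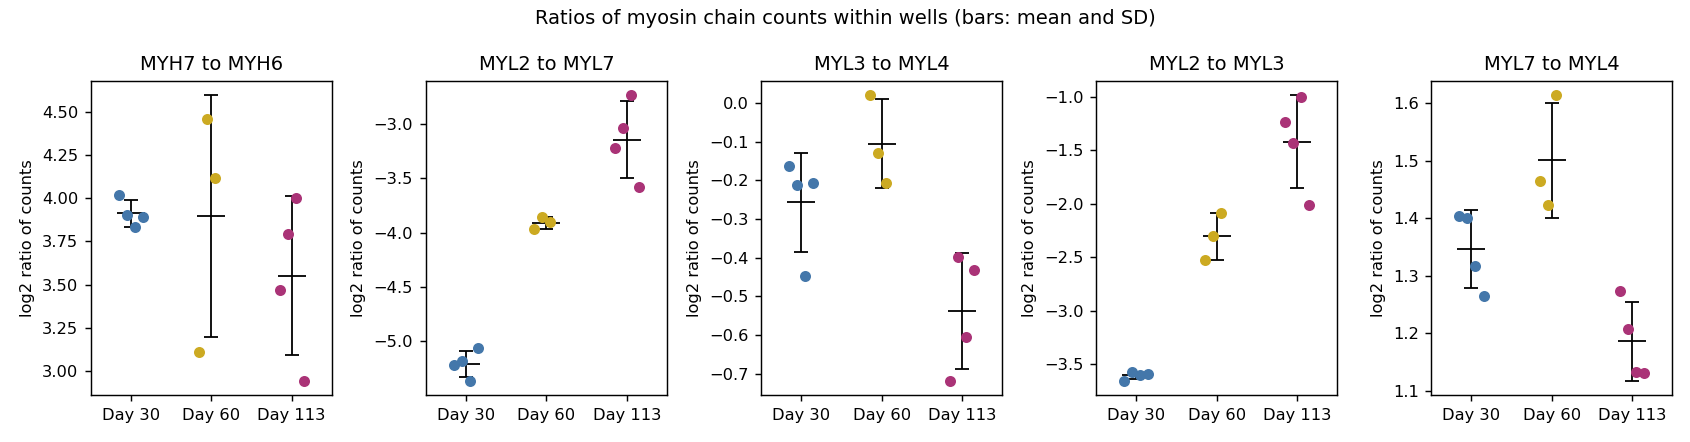
Log2 ratio of counts of 2 myosin chain genes within each well, by day; points are wells in the order of their replicate number and bars give the mean and SD. The ratios of MYL2 to MYL7 and to MYL3 lie higher in each later day with no overlap, while the MYH7 to MYH6 wells, close together at Day 30, spread apart at Day 60 and Day 113.

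Other myosin II chains were read from fixed lists. Of 6 further heavy chain genes with a row, 2 fell by Day 60 and the same 2 rose after it, and 0 were called over the whole course, with medians of -0.47, 0.34 and 0.18 on the log2 scale, the last of which was -0.02 with the reference scaling. They were the non-muscle chains MYH9, at 663, 464 and 816 CPM (-0.51, adjusted p = 0.0404, then 0.81, adjusted p = 0.00129), and MYH14 (-0.91, adjusted p = 0.0338, then 0.97, adjusted p = 0.0133). MYH10, the third non-muscle chain, was not called (-0.43, adjusted p = 0.0797, then 0.33, adjusted p = 0.123), but its early change was called with the reference scaling (-0.58, adjusted p = 0.0416). MYH9 thus fell and rose where MYH7B rose and fell. The fibroblast sum also had its lowest values on Day 60, and its part in the MYH9 values was not tested. MYH11, the smooth muscle heavy chain, was not analysed here. The developmental skeletal chain MYH3 was near the floor, at 1.36, 2.04 and 2.61 CPM. Of 8 further light chain genes, 1 rose by Day 60, 2 rose and 1 fell after it, and 4 rose from Day 30 to Day 113, with medians of 0.13, 0.55 and 0.53. With the reference scaling the first median was -0.001, 0 rose early, 3 rose and 0 fell after Day 60, and 2 rose and 1 fell from Day 30 to Day 113. MYL9, the regulatory chain of smooth and non-muscle myosin, rose from 1236 to 2164 CPM (0.81, adjusted p = 0.000839). MYL6, its essential partner, rose by 0.54 (adjusted p = 0.0164) and MYL12B, a non-muscle regulatory chain, by 0.51 (adjusted p = 0.00391); with the reference scaling their adjusted p was 0.0645 and 0.151. The fourth was the skeletal chain MYL1, with a mean of only 1.24 CPM at Day 113. Of the 5 smooth muscle markers 4 rose over the same time, and their part in these values was not tested.

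Of 7 genes for light chain kinases and the myosin phosphatase, 1, 3 and 3 rose in the 3 comparisons and 0 fell, with medians of 0.15, 0.09 and 0.22. With the reference scaling 0, 3 and 2 rose, with medians of 0.02, 0.07 and 0.05. MYLK3, the cardiac kinase that phosphorylates MYL2, stood at 621, 520 and 853 CPM and rose by 0.71 after Day 60 (adjusted p = 0.000181). MYLK, the smooth muscle kinase, rose by 1.45 over the whole course (adjusted p = 0.000129), and PPP1R12C, a targeting subunit of the phosphatase, by 1.00 (adjusted p = 6.2e-06). The catalytic subunit PPP1CB rose by Day 60 (0.35, adjusted p = 0.0257), a call lost with the reference scaling (adjusted p = 0.443). Of 8 thick filament proteins that bind myosin, 3 rose by Day 60, 2 fell after it, and over the whole course 2 rose and 1 fell, with medians of 1.33, -0.27 and -0.05. With the reference scaling 1 rose by Day 60, 1 fell after it, and 2 rose and 3 fell over the whole course, with medians of 1.18, -0.30 and -0.23. The genes behind the early median were of low level. MYBPHL, a myosin-binding protein H-like gene of the atria, stood at 3.04, 7.67 and 3.23 CPM, rose by 1.33 (adjusted p = 0.0168) and fell by 1.25 (adjusted p = 0.0123); the rise had an adjusted p of 0.0567 with the reference scaling. MYOM2, an M-band protein, stood at 0.737, 2.23 and 2.08 CPM (adjusted p = 0.0491 by Day 60, and 0.0738 with the reference scaling). MYBPH had 1 count over the 4 Day 30 wells and 67 over the 3 Day 60 wells. The abundant MYBPC3, cardiac myosin-binding protein C, was not called, at 2024, 1888 and 1787 CPM. With the reference scaling it fell from Day 30 to Day 113 (-0.33, adjusted p = 0.0301), but MYBPC3 is itself among the 10 reference genes. Of these 10 genes, 2 rose and 3 fell over the whole course in the main fit.

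Of 8 chaperones and assembly or turnover factors of myosin, 1 rose by Day 60, 2 rose after it, and 2 rose and 1 fell over the whole course, with medians of -0.03, 0.04 and 0.07. The signs of these medians changed with the scaling: they were 0.009, -0.02 and 0.05 with the upper quartile and -0.16, 0.02 and -0.08 with the reference genes. UNC45B, the muscle chaperone of the myosin head, rose by 0.40 after Day 60 (adjusted p = 0.0327, and 0.0658 with upper-quartile scaling). The heat shock protein HSP90AA1 rose by 0.72 over the whole course (adjusted p = 3.74e-05), while HSP90AB1 fell by 0.34 (adjusted p = 0.00608). TRIM63, a ubiquitin ligase of the sarcomere, rose by 0.60 by Day 60 (adjusted p = 0.00321). Of 17 transcription factors known to act on myosin chain genes, 3 rose by Day 60 and 0 fell. After Day 60, 2 rose and 5 fell, and over the whole course 4 rose and 5 fell. The medians were 0.01, -0.21 and -0.13. With the reference scaling they were -0.13, -0.24 and -0.29, with 1 rise and 1 fall by Day 60, 2 rises and 4 falls after it, and 3 rises and 7 falls over the whole course. HEY2, a repressor of atrial genes in the ventricle, fell from 185 to 72.0 CPM (-1.36, adjusted p = 2.21e-07), and IRX4, a ventricular factor, fell by 0.38 (adjusted p = 0.0339). NR2F1, an atrial factor, rose from 3.92 to 33.2 CPM by Day 60 (3.08, adjusted p = 0.000692). NR2F2, its close relative and also an atrial factor, was called in 0 comparisons, at 38.4, 38.0 and 32.7 CPM. TBX5 rose by 0.43 (adjusted p = 0.0252) and then fell by 0.56 (adjusted p = 0.00245), the same order of signs as MYH7B, but its rise had an adjusted p of 0.231 with the reference scaling. SRF rose by 0.90 and GATA4 fell by 0.69 over the whole course (adjusted p = 7.66e-05 and 8.92e-05). NKX2-5, at 372, 346 and 356 CPM, was called in 0 comparisons.

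For each of the 7 genes the 3 genes with the most alike log2 CPM over the 11 libraries were taken from 10349 with a mean of at least 10 CPM. Pearson's r is given as a description, since the libraries share their days. MYL2 was most like TNMD (0.98), the chaperone CRYAB (0.97) and the intermediate filament gene DES (0.97). CRYAB stood at 321, 706 and 821 CPM. MYH7 was most like ZNF629 (0.97), ANKZF1 (0.96) and HIF3A (0.96), and HIF3A stood at 247, 252 and 139 CPM. MYH7B was most like CISH (0.96), a cytokine signalling inhibitor, at 13.0, 28.5 and 11.3 CPM, and PHF19 (0.94) was also among its 3. Among the 3 of MYL4 were the light chain MYL6 and URM1 (both 0.96). MYL7 was most like C6orf203 (0.95), MYL3 like NDUFV1 (0.90) and MYH6 like RUBCN (0.86).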

How the data were processed

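Poly(A) RNA of 11 wells was sequenced as paired reads. Reads were aligned to hg38 with STAR 2.5.3a and counted per gene with featureCounts 2.0.3, per the submitters' processing notes; the annotation, the strand setting and the handling of multiply mapped reads are not given in the sources used here. The authors deposited raw counts per gene, which were used for every comparison. The authors also deposited a TPM table, which was used in no comparison: the relative gene length implied by its values and the counts varied 12.8-fold to 288-fold between libraries for the same one of the 7 genes, where 1 length should result.

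Counts were tested in R 4.3.3 with edgeR 4.0.16 (TMM scaling, filterByExpr with a minimum count of 10, quasi-likelihood F-test, 1 fit of 11 libraries with day as the only factor, 8 residual degrees of freedom) and Benjamini-Hochberg adjustment over 19990 genes. The SE is the absolute log2 fold change over the square root of F. Within-well log2 ratios used a pseudocount of 0.5 and exact permutation tests (scipy 1.17.1). Gene positions, lengths and overlaps came from GENCODE on GRCh38 and microRNAs from RefSeq. Alternatives were RLE and upper-quartile scaling, scaling to 10 cardiomyocyte reference genes, DESeq2 1.42.0, limma-voom 3.58.1, robust dispersions, 2 other filters, only the 2 days compared, a replicate block, leaving out each well, and, chosen after seeing the data, the longest coding transcript as length and the other scalings for the gene lists. Counts were simulated for the comparison of Day 113 with Day 30 over 19990 genes, with changes set in 200 genes with a mean over 1 CPM. The fit recovered 90.6% of 4-fold and 69.6% of 2-fold changes in the right direction. Smaller changes, of 0.5 on the log2 scale, were simulated too, and of all 200 changes 119 were recovered. The share recovered among the smallest changes was not recorded, so a gene that is not called may still have changed by a small amount. The 7 genes and all lists were chosen with earlier results of these data known. Named genes are these 7, members of the lists, and the 3 most alike genes of each of the 7. Some genes that this rule names are not reported here.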

Additional observations from a re-analysis of the deposited data

How the results depend on the processing

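All calls of MYH7, MYH7B and MYL2 were made in each of the 21 alternatives per comparison. Not all of these could differ from the main fit. The setting with no filter repeats it, since the filter removed 0 genes. Leaving out a well of the day not compared can change little: MYH6 by Day 60 stayed at 0.091 without any single Day 113 well. Of 441 values of the 7 genes, 416 kept their sign and their side of the threshold, 7 lost a call (all MYL4, given above), 1 gained one (MYL4 after Day 60 without Day 113 replicate 1, 0.42, adjusted p = 0.0379 by edgeR) and 17 changed sign, 0 of them called. Scaling to the cardiomyocyte reference genes turned MYH6 (-0.064) and MYL4 (-0.092) by Day 60, MYL7 after it (-0.0010) and MYL3 from Day 30 to Day 113 (-0.037). Limma-voom turned MYH6 by Day 60 (-0.050), and upper-quartile scaling turned MYL7 after Day 60 (-0.044). Leaving out 1 well gave ranges that include 0 in 8 cases: by Day 60, MYH6 from -0.49 to 0.35, MYH7 from -0.19 to 0.025 and MYL4 from -0.028 to 0.14; after Day 60, MYH6 from -0.67 to 0.18, MYL3 from -0.28 to 0.052 and MYL7 from -0.13 to 0.085; Day 113 against Day 30, MYH7B from -0.16 to 0.036 and MYL3 from -0.099 to 0.23. The signs of both MYH6 values turned on Day 60 replicate 1. The reference scaling moved the median of all genes to -0.16, -0.02 and -0.19. The genes called were 2060 (878 higher), 4790 (2570 higher) and 6889 (3459 higher), and with that scaling 1774 (446 higher), 3115 (1452 higher) and 5846 (1765 higher); the cause was not tested. Leaving out 1 well gave 1220 to 2618, 3317 to 4735 and 5657 to 6977; the early count fell most without Day 30 replicate 2 (1323), Day 60 replicate 1 (1259) or Day 60 replicate 3 (1220). The well numbers were not taken as pairing the samples, since no label gives them a shared source. The 10 same-numbered pairs all correlated above 0, at 0.023 to 0.145, 3 of them over 0.1. The 30 pairs with different numbers had correlations of -0.132 to 0.137, most of them below 0. Of 11 libraries 6 correlated best with a same-numbered one. A structure shared by well number is therefore possible, and the main fit leaves it out. The replicate block gave 2474, 4954 and 7143 calls, more than the main fit, and changed no call of the 7 genes. For the ratios, leaving out 1 well gave 1.25 to 1.35 for MYL2 to MYL7 and 1.19 to 1.41 for MYL2 to MYL3 by Day 60. MYL7 to MYL4 gave 0.097 to 0.19 by Day 60 and -0.35 to -0.26 after it, and MYL3 to MYL4 gave -0.48 to -0.37 after Day 60 and -0.34 to -0.22 for Day 113 against Day 30. MYH7 to MYH6 gave -0.30 to 0.37 by Day 60 and -0.51 to -0.16 for Day 113 against Day 30. With coding length the light to heavy ratio was 4.79, 5.66 and 9.71 and with the longest transcript 4.42, 5.20 and 8.80.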
